A study of Homo sapiens with 7 samples.

Results

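The regions described here are the stretches of chromatin that became less accessible after silencing of PHF19 in Kasumi-1 cells. They were selected on the authors' group means, as every listed region whose mean log2 read count was lower in knockdown cells than in control cells, and they number 200 of 8815 listed regions. The other 8615 listed regions had a higher mean in knockdown cells and serve here only as a background. Per the inferred size of the authors' test, 52675 regions were tested, so that the decreased regions are 0.38% and the increased regions 16.4% of those tested. An implied 110 further passing regions are in neither list and their direction is not known, so either share may be too low.

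Accessibility was measured by ATAC-seq, an assay in which a transposase cuts and tags open DNA, so that read counts follow how exposed a region is. Kasumi-1, an established line from acute myeloid leukaemia, carries the RUNX1-RUNX1T1 fusion gene. The knockdown group has 3 libraries of cells given a lentiviral shRNA against PHF19, and the control group has 4 libraries of cells given a scrambled shRNA, whose treatment label reads WT. All cells of both groups went through the same vector and selection, with puromycin at 2 µg/ml added 48 hours after the shRNA for at least 24 hours, and each library was made from 10000 cells. No label states that libraries of one kind were grown separately, so the deposited p-values reflect only how these libraries vary, and that variation may be technical. Neither the PHF19 transcript nor its protein was measured here; 3 increased and 0 decreased regions had PHF19 as the nearest gene, which does not check the knockdown.

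PHF19 is a Polycomb-like accessory subunit of Polycomb repressive complex 2, the enzyme that methylates lysine 27 of histone H3 at silenced genes. Its Tudor domain binds histone H3 methylated at lysine 36, and the Polycomb-like family binds unmethylated CpG-rich DNA. Regions of open chromatin are mostly promoters and enhancers, and an enhancer can act on a gene other than the nearest one. The nearest gene is therefore given below as an address and not as a target.

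The sequences of promoters whose transcription start was covered by a decreased region are shown first, since CpG content is a feature in which the median of the decreased promoters differed from that of the increased ones. Shown are 5 promoters of genes whose length in the deposited annotation was within 20 bp of that in RefSeq, so that both are likely to use the same start. TUBB2A, which has a near-identical copy, and the MIR5189 hairpin also met that limit and are not shown here. Each run is the RefSeq window of 300 bases on GRCh38.p14, from 250 before to 50 after the start, written 5′ to 3′ on the strand of the gene, with each CpG in capitals. KCNN3 encodes a small-conductance calcium-activated potassium channel, and its window is chr1:154870232-154870531 on the minus strand. ZNF441 encodes a KRAB-type zinc finger protein, and its window is chr19:11766750-11767049 on the plus strand. HELZ2 encodes a helicase that acts as a transcriptional coactivator, and its window is chr20:63574190-63574489 on the minus strand. SERPINB9 encodes the intracellular inhibitor of granzyme B, and its window is chr6:2903260-2903559 on the minus strand. KLHDC8B encodes a kelch-domain protein, and its window is chr3:49171348-49171647 on the plus strand.
KCNN3: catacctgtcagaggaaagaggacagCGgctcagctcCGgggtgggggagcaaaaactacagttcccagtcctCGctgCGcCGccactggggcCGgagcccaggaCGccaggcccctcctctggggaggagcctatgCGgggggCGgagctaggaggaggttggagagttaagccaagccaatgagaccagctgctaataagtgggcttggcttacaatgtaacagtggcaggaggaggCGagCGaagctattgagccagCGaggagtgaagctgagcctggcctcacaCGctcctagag
ZNF441: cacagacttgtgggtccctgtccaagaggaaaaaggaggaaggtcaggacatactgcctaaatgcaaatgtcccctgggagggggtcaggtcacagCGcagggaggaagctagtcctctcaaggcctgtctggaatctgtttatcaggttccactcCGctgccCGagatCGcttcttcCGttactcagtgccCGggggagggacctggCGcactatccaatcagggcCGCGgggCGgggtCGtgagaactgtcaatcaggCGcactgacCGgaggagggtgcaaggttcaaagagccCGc
HELZ2: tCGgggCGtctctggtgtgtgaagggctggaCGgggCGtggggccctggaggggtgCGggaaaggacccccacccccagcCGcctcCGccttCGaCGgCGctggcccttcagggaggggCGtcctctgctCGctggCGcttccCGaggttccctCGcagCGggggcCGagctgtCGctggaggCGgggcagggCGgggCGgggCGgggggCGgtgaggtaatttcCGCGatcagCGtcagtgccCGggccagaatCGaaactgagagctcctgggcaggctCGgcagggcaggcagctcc
SERPINB9: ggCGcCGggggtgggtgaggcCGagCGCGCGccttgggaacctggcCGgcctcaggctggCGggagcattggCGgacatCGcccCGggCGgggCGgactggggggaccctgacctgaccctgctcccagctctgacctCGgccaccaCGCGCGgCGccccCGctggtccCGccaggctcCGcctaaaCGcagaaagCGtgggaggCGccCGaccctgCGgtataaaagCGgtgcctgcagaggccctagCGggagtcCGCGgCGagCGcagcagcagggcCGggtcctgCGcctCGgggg
KLHDC8B: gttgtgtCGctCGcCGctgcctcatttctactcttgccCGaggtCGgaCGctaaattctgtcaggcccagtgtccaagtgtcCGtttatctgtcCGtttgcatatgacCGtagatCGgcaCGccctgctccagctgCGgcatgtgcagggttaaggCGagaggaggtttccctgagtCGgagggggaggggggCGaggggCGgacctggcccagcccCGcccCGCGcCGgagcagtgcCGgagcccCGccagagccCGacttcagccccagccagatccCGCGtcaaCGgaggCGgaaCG

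KCNN3 had 13 CpGs in its window and ZNF441 had 14, whereas HELZ2 had 29, KLHDC8B had 28 and SERPINB9 had 35. The ratio of observed CpGs to the number that the base composition predicts was 0.469 for KCNN3, 0.537 for ZNF441, 0.741 for HELZ2, 0.819 for SERPINB9 and 0.857 for KLHDC8B. If the start is the same base in both builds, the decreased region held all 300 bases of the KCNN3, HELZ2 and KLHDC8B windows, 230 bases of the ZNF441 window and 226 of the SERPINB9 window.

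A microRNA gene was the nearest gene of 9 decreased regions (4.5%, exact Clopper-Pearson 95% interval 2.08 to 8.37%), against 2.31% of increased regions. The mature products of 3 microRNA genes within 3 kb of a decreased region are shown because the region lies at or just before the hairpin. They are printed with the seed, bases 2 to 8, in capitals. A microRNA pairs with messenger RNAs mainly through its seed. MIR99B belongs to a conserved cluster with MIRLET7E and MIR125A, and a decreased region lay 1.59 kb upstream of its hairpin. MIR4740 had a decreased region 1.13 kb upstream, and the MIR5189 hairpin was covered by one. The sequences are those of RefSeq on GRCh38.p14.
hsa-miR-99b-5p: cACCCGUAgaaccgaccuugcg
hsa-miR-99b-3p: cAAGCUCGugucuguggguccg
hsa-miR-4740-5p: aGGACUGAuccucucgggcagg
hsa-miR-4740-3p: gCCCGAGAggauccgucccugc
hsa-miR-5189-5p: uCUGGGCAcaggcggauggacagg
hsa-miR-5189-3p: uGCCAACCgucagagcccaga

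With both arms of MIR3675, the remaining microRNA within 3 kb of a decreased region, there were 8 mature sequences with 8 different seeds, so no seed was shared. The authors' mean at the MIR99B region was 4.97 normalised reads in knockdown cells and 19.4 in control cells. The MIR5189 region had 13.1 reads in knockdown cells and 28.7 in control cells. The MIR4740 region had 1.97 reads in knockdown cells and 10.7 in control cells. The MIR3675 region was at the floor of 1 read in knockdown cells and had 5.41 reads in control cells, and its locus belongs to a duplicated stretch, so reads there may be shared with other copies. MicroRNA levels were not measured.

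Values below are the authors' group means as normalised reads per region, obtained by undoing the deposited log2. There is no value per library, so no spread between libraries can be shown beside any of them, and group overlap cannot be examined. Across the 200 decreased regions the knockdown mean had a median of 2.50 reads (range 1 to 60.8), and the control mean had a median of 10.7 reads (range 3.42 to 96.7). The increased regions had a median of 27.5 reads in knockdown cells and 11.2 in control cells, so the control medians of the lists were close. In 133 of the 200 decreased regions (66.5%) the overall mean, to which the low knockdown values contribute, was below 10 reads. In 49 decreased regions (24.5%, exact Clopper-Pearson 95% interval 18.7 to 31.1%) the knockdown mean stood at the floor of the deposited scale, 0 in log2 or 1 read. All intervals of this kind cover counting error alone, and regions that lie close together are not independent.

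The log2 fold in the authors' deposited table had a median of -0.96 in the decreased regions and ran from -1.91 to -0.62. These values chose the members, so they are a description. In all 200 regions the deposited fold was nearer to 0 than the gap between the log2 group means, whose median was -2.02. By the false discovery rate (FDR) of the authors' deposited table, 27 decreased regions (13.5%) passed 0.01, against 45.9% of increased regions. Regions at the knockdown floor had a median control mean of 5.52 reads and a median fold of -0.86 in the authors' deposited table, and the other 151 had 13.1 reads and -0.99.

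**Figure D1:**
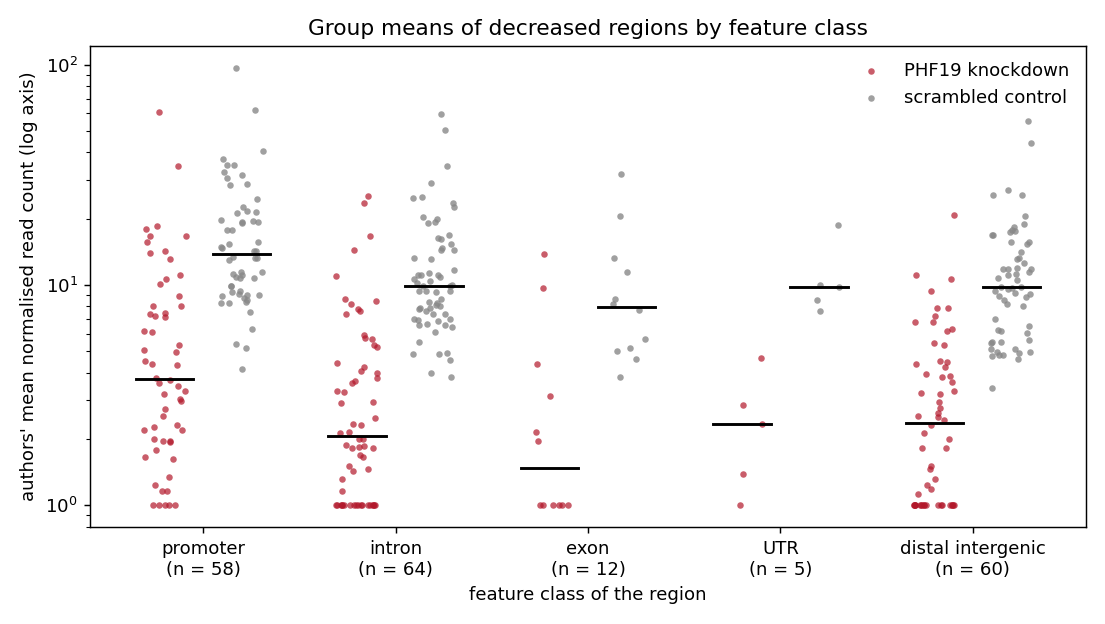
Authors' mean normalised read count (log axis) of each decreased region in the PHF19 knockdown (red, left of each pair) and the scrambled control (grey, right), by feature class, with black bars at the medians. The single region of the downstream class is not drawn. Knockdown medians lie between 1.48 reads in exons and 3.74 reads at promoters, control medians between 7.95 and 13.8 reads, and the row of points at 1 is the floor of the scale.

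By the deposited annotation, 64 decreased regions (32%) lay in introns, 60 (30%) were distal intergenic, 58 (29%, interval 22.8 to 35.8%) lay within 3 kb of a transcription start, the annotation's promoter class, and 12 (6%) lay in exons. A further 4 were in a 3′ UTR, 1 in a 5′ UTR and 1 just downstream of a gene. Of the increased regions, 20.5% were intronic, 26.8% intergenic, 50.1% at promoters and 1.86% exonic. First introns held 18 of the 64 intronic regions. Promoter regions had a median of 3.74 reads in knockdown cells and 13.8 in control cells, intronic regions 2.06 and 9.92, intergenic regions 2.37 and 9.81, and exonic regions 1.48 and 7.95. Floored values were unevenly spread over the classes. The knockdown mean was at the floor in 6 of 12 exonic, 19 of 60 intergenic, 18 of 64 intronic and 5 of 58 promoter regions.

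Decreased regions sat mostly at intermediate distance from a start. Only 20 (10%, interval 6.22 to 15.02%) covered one, against 34.6% of increased regions. From 1 to 100 kb away lay 142 (71%, interval 64.2 to 77.2%), against 36.9%, and beyond 100 kb lay 17 (8.5%), against 16.2%. The median distance was 10.9 kb, against 2.90 kb in increased regions. Of the members that did not cover a start, 83 were upstream and 97 downstream of the nearest one. The farthest were those of BRINP3, 1326 kb downstream, PCDH7, 894 kb downstream, and SALL3, 741 kb upstream.

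**Figure D2:**
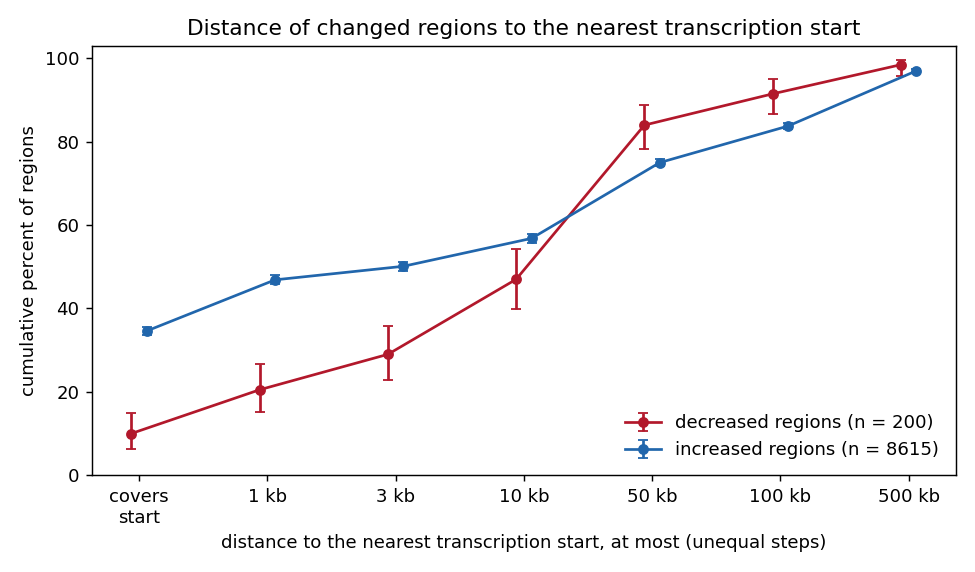
Cumulative percent of decreased (red) and increased (blue) regions within each distance of the nearest transcription start, with exact Clopper-Pearson 95% intervals. The curves cross between 10 kb, which holds 47% of decreased and 56.8% of increased regions, and 50 kb, which holds 84% and 75.01%.

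The share at promoters was larger at higher control means in both lists and was lower among decreased regions at each level, though below 10 reads the difference lay within the interval of the decreased share. From 5 to 10 reads in control cells, 22.1% of 77 decreased and 28.0% of 1801 increased regions were at promoters. From 10 to 20 reads the shares were 32.9% of 73 decreased and 59.99% of 1857 increased regions. At 20 reads and above they were 48.5% of 33 decreased and 91.0% of 2739 increased regions. Below 5 reads 1 of 17 decreased regions was at a promoter, against 9.38% of increased ones. The median distance to a start was 6.70 kb in decreased and 0.348 kb in increased regions at 10 to 20 reads, and 4.41 kb in decreased and 0 in increased regions at 20 reads and above. From 5 to 10 reads the order was the other way, at 16.7 kb in decreased and 24.3 kb in increased regions. These classes were set after the data had been seen, and the control mean itself entered the selection. Classes of the overall mean, which the change pulls down in decreased and up in increased regions, gave 29.3% of decreased and 11.7% of increased regions at promoters from 5 to 10 reads, but 58.8% and 82.9% at 20 reads and above. The order of the promoter shares below 20 reads thus depended on which mean set the classes.

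**Figure D3:**
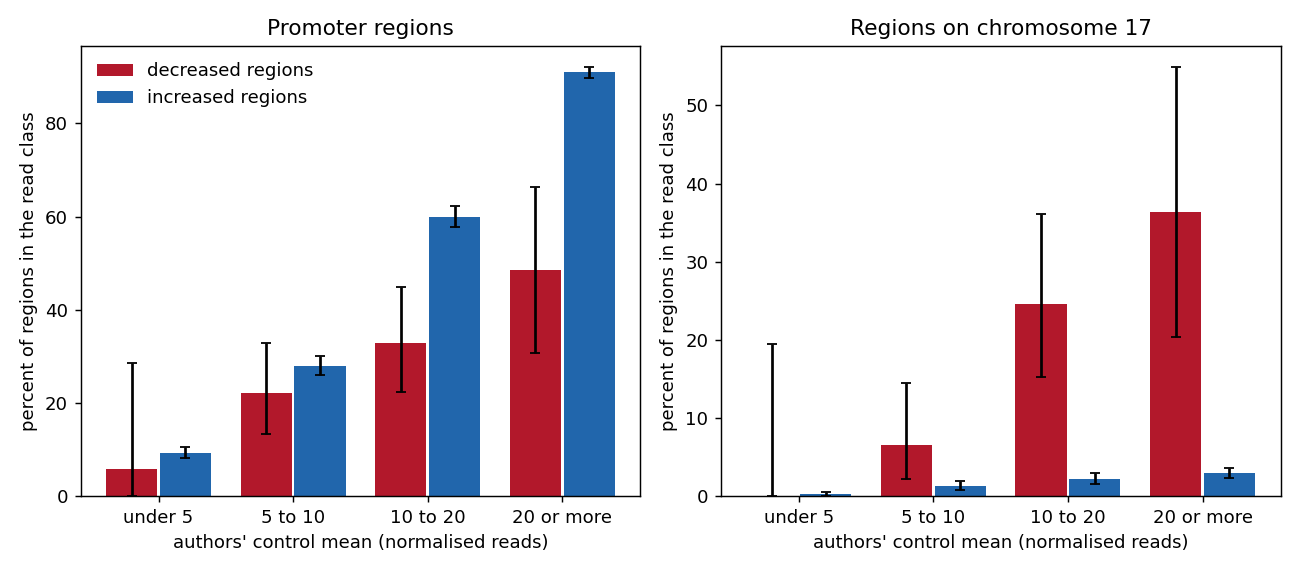
Percent of regions at promoters (left panel) and on chromosome 17 (right panel) within classes of the authors' control mean, for decreased (red) and increased (blue) regions, with exact Clopper-Pearson 95% intervals. The promoter share of decreased regions is below that of increased regions in each class, and the chromosome 17 share is above it from 5 reads up.

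The largest decreases by the fold of the authors' deposited table are described next, with coordinates as deposited, 1-based and read as hg19. First came a region at chr15:57616100-57616858, 23.5 kb downstream of the start of LINC00926, a long non-coding RNA gene. Its mean was 10.6 reads in knockdown cells and 55.2 in control cells, with a fold of -1.91 and an FDR of 9.38e-08 in the authors' deposited table. ZNF157, a zinc finger gene on the X chromosome, followed with a region 8.12 kb upstream at 4.23 reads in knockdown cells and 25.7 in control cells, a fold of -1.75 in the authors' deposited table. It was the one decreased region on that chromosome. PCDH7, a protocadherin gene, had a distal region with 2.62 reads in knockdown cells and 17.6 in control cells, a fold of -1.59 in the authors' deposited table.

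PRDM11, which encodes a PR-domain protein, had a region in its second intron with 5.25 reads in knockdown cells and 22.7 in control cells. CYB561, a transmembrane electron carrier, had a region 17.1 kb downstream with 4.66 reads in knockdown cells and 18.8 in control cells. The annotation places it in a 3′ UTR without naming the gene of that UTR. KCNN3, whose promoter is printed above, had 2.97 reads in knockdown cells and 15.7 in control cells. TFAP4, a helix-loop-helix factor that binds the E-box CAGCTG, had a region 20.8 kb upstream with 1.501 reads in knockdown cells and 11.8 in control cells. These 4 and MIR99B had folds of -1.45, -1.36, -1.35, -1.34 and -1.34 in the authors' deposited table. The region assigned to DNAH10, an axonemal dynein gene, lay in an exon of its neighbour ATP6V0A2, a subunit of the vacuolar proton pump, with 1 read (the floor) in knockdown cells and 7.68 in control cells. BCL6B, a zinc finger repressor related to BCL6, had a region 0.599 kb downstream of its start with 8.02 reads in knockdown cells and 28.3 in control cells. ZNF287 had a region 33.2 kb downstream with 3.85 reads in knockdown cells and 15.4 in control cells. The last 3 had folds of -1.31, -1.30 and -1.30 in the authors' deposited table. Of the regions named here 5 were intergenic, and the DNAH10 region alone stood at the floor.

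The most accessible members had control means several times the median. The 5 highest control means were at UGDH, PRCD, CAMSAP3, LINC00926 and SCN4A. UGDH, which makes UDP-glucuronate, had 60.8 reads in knockdown cells and 96.7 in control cells over its start, and the smallest fold of all, -0.62 in the authors' deposited table. PRCD, a photoreceptor disc protein gene, had 34.8 reads in knockdown cells and 62.0 in control cells. CAMSAP3, which binds the minus ends of microtubules, had 23.5 reads in knockdown cells and 59.7 in control cells. SCN4A, the skeletal muscle sodium channel gene, had 25.5 reads in knockdown cells and 50.5 in control cells in an intron. UGDH, PRCD and KLHDC8B were the members nearest to the threshold of the selection, with group mean differences of -0.67, -0.83 and -0.89 in log2. On its other side, the nearest were AP3D1, TBCCD1 and MLEC, with 126, 120.1 and 115 reads in knockdown cells, against 81.3, 77.4 and 74.1 in control cells, and differences of 0.63, 0.63 and 0.64. No listed region had a difference between -0.67 and 0.63. The lists hold only regions with an FDR of at most 0.05 in the authors' deposited table. Such a limit removes small differences, so the gap around 0 does not show that the choice of members is robust. Membership does turn on that limit: the FDR of the members ran up to 0.04997, and 27 of the 200 passed 0.01.

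The decreased regions that covered a start numbered 20, and lay at genes of varied roles. Besides UGDH and KCNN3, KHDRBS2, which encodes an RNA-binding protein, had 16.7 reads in knockdown cells and 40.7 in control cells. QPRT, an enzyme of NAD synthesis from quinolinate, had 6.16 reads in knockdown cells and 19.7 in control cells. RUNX3, a DNA-binding subunit of core-binding factor, had 8.06 reads in knockdown cells and 19.4 in control cells. All 3 had control means above the median of 10.7 reads. DMPK, the myotonic dystrophy protein kinase, had 14.2 reads in knockdown cells and 31.4 in control cells. KLHDC8B had 16.6 reads in knockdown cells and 30.7 in control cells, and RGS3, a regulator of G-protein signalling, had 7.25 reads in knockdown cells and 17.8 in control cells. S100A13, a calcium-binding protein, had 6.13 reads in knockdown cells and 15.4 in control cells. The cytoskeletal members were MYO18B, an unconventional myosin, with 5.35 reads in knockdown cells and 14.2 in control cells, and the beta-tubulins TUBB2A and TUBB4A, with 2.19 and 2.28 reads in knockdown cells, against 8.98 and 9.92 in control cells. Tubulin genes have near-identical copies, so their counts are uncertain. The zinc finger genes ZNF878 and ZNF441 lay close together on chromosome 19 and had 3.04 and 1.24 reads in knockdown cells, against 13.3 and 9.31 in control cells. TMC7, a transmembrane channel-like gene, had 1.78 reads in knockdown cells and 11.3 in control cells. NT5DC2, HELZ2 and PTGIR, the prostacyclin receptor gene, had 2.31, 3.59 and 2.19 reads in knockdown cells, against 10.7, 10.8 and 8.25 in control cells. SERPINB9, over its start, was at the floor in knockdown cells and had 4.13 reads in control cells. With MIR5189 these are the 20.

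Among the promoter regions with the most negative deposited folds were those of KCNN3, MIR99B, BCL6B, TMC7, ZNF878, QPRT, ZNF181, NT5DC2, MIR4740, RNF213 and ZNF441. Not yet given are ZNF181, a zinc finger gene with 3.47 reads in knockdown cells and 13.2 in control cells, and RNF213, a giant ubiquitin ligase, whose region 2.83 kb upstream had 3.78 reads in knockdown cells and 13.4 in control cells. Of these promoters 3 belonged to zinc finger genes of the ZNF family.

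A RefSeq window was found for 32 of the 40 genes with a decreased region within 1 kb of a start (80%), and for 3032 of the 3623 genes with an increased one. The first window of the table was taken for each gene, which need not be the start nearest to the region. The GC content had a median of 63.7% in decreased promoters and 66% in increased ones. The CpG ratio had a median of 0.688 in decreased promoters, 0.877 in increased ones and 0.580 over the 27305 genes of the table. A ratio below 0.6, a usual limit for a CpG island, was found in 15 of the 32 decreased promoters (46.9%), against 11.6% of increased promoters and 51.0% of all genes. Among increased promoters with a control mean between 9.92 and 24.6 reads, the quartiles of the decreased promoters, it was 12.2% (153 of 1256), and among those within the quartiles of the overall mean it was 18.9% (105 of 557). Both limits were set after the data had been seen. RGS3, QPRT, TSPOAP1-AS1 and DMPK had the lowest ratios, 0.0689, 0.0977, 0.136 and 0.154, and FOXK2 had the highest, 1.19. Those with the lowest ratios have 5, 2, 2 and 2 windows. The deposited lengths of RGS3, QPRT and DMPK differed from RefSeq by 124959, 818 and 2921 bp, so their windows may belong to another start. A single window was held by 16 of the 32 decreased and 2131 of the 3032 increased promoters, so window choice bears more on the decreased share. With the genes that have a single window, 6 of 16 decreased promoters (37.5%) and 7.79% of increased promoters were below 0.6, but these 16 are 40% of the 40 genes, which is too few for that check to count.

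**Figure D4:**
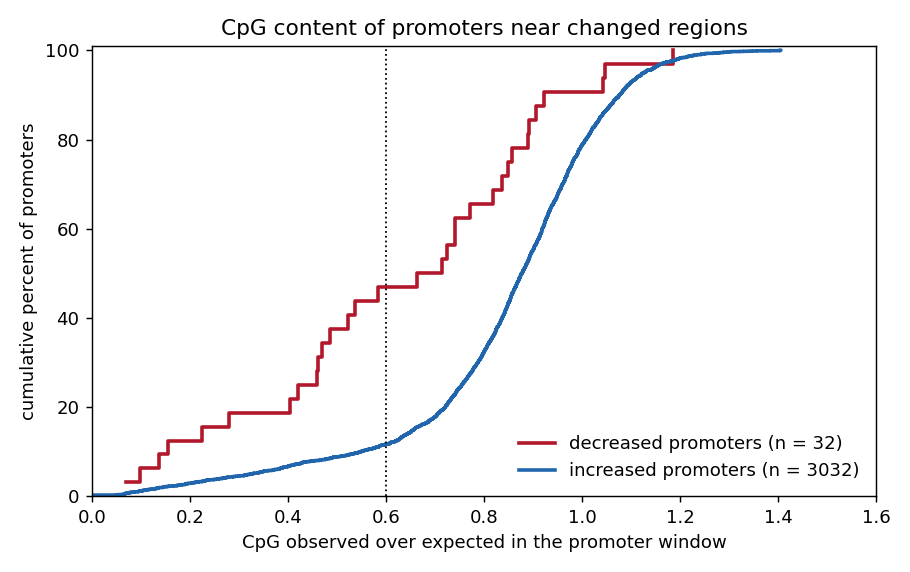
Cumulative percent of promoters by the ratio of observed to expected CpGs in the RefSeq window of 300 bases, for the 32 decreased (red) and 3032 increased (blue) promoters. The dotted line marks 0.6, below which lie 46.9% of decreased and 11.6% of increased promoters.

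Motifs were counted as letters on either strand of these windows, and a match is no evidence of binding. The SP/KLF box GGGCGG was in 84.4% of decreased promoters, 71.9% of increased promoters and 44.6% of all windows. The CCAAT box was in 53.1% of decreased promoters, 36.2% of increased ones and 35.7% of all. The E-box CAGCTG, which is also counted within the general E-box CANNTG, was in 28.1% of decreased promoters, 15.6% of increased ones and 17.7% of all, and CANNTG was in 62.5%, 57.7% and 68.9% in that order. The ETS core CCGGAAG was in 9.38% of decreased promoters, 22.9% of increased ones and 10.7% of all. The NRF1 motif, both of whose repeats hold CpGs, was in 3.13% of decreased promoters, 18.3% of increased ones and 8.78% of all. The RUNX letters TGTGGT were in 9.38% of decreased promoters, 9.30% of increased ones and 13.1% of all. AP-1, GATA and CRE motifs were each in at most 2 of the 32 decreased windows. In the genes with a single window, the ETS core was in 3 of 16 decreased promoters (18.8%), 25.7% of increased ones and 10.7% of all, and CANNTG was in 8 of 16 decreased promoters (50%), 56.7% of increased ones and 69.7% of all. For both motifs the place of the decreased share thus depended on the windows used.

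Chromosome 17 held 35 decreased regions, 17.5% of them, but 150 increased regions, 1.74% of those. Chromosome 6 held 25 decreased and 411 increased regions, chromosome 1 held 20 and 543, chromosome 19 held 19 and 240, and chromosome 20 held 15 and 80. These 5 chromosomes together carried 57% of decreased and 16.5% of increased regions. Of all listed regions on chromosome 17, 18.9% were decreased, and on chromosome 20 it was 15.8%, against 2.27% over all chromosomes. Other chromosomes had few decreased regions. Chromosome 7 had 3 decreased regions beside 1042 increased ones, chromosome 2 had 1 beside 710, chromosome 5 had 2 beside 771, and chromosome 13 had 0 beside 199. Per 100 protein-coding genes there were 2.99 decreased regions on chromosome 17, 2.79 on chromosome 20, 2.38 on chromosome 6 and 0.0797 on chromosome 2. The increased list is itself uneven over chromosomes. Of 20056 protein-coding genes, chromosome 17 has 1169 and chromosome 7 has 938, beside 150 and 1042 increased regions. The contrast on chromosome 17 thus holds few increased regions as well as many decreased ones. How all tested regions were spread over chromosomes is not known.

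**Figure D5:**
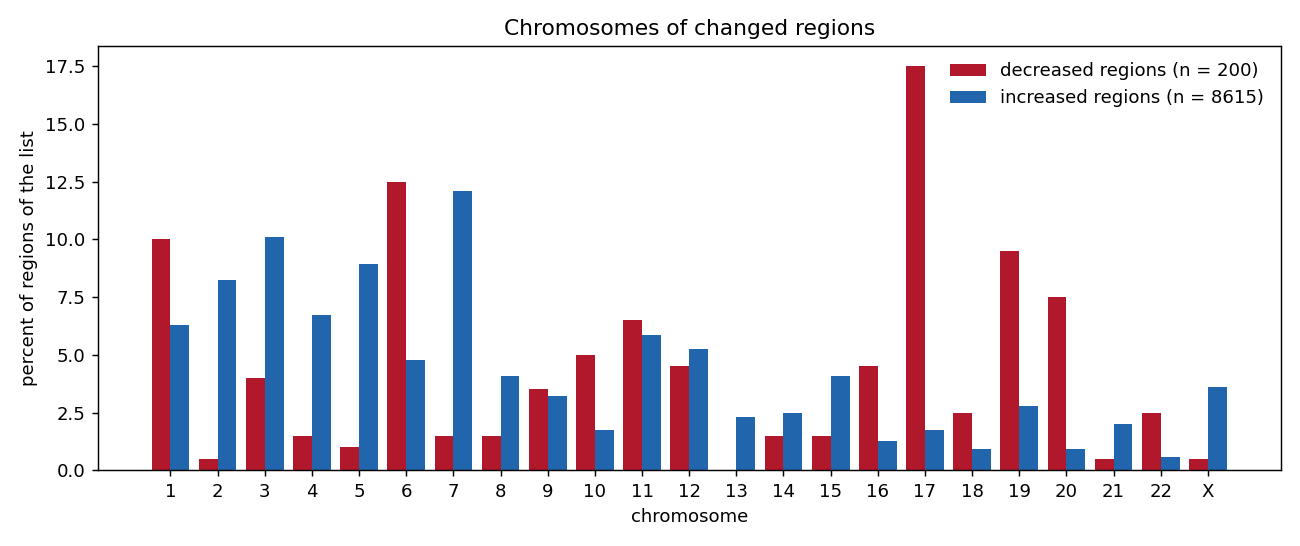
Percent of the 200 decreased (red, left of each pair) and 8615 increased (blue, right) regions on each chromosome. Chromosome 17 holds 17.5% of decreased and 1.74% of increased regions, and chromosome 7 holds 1.5% of decreased and 12.1% of increased regions.

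The larger share of decreased regions on chromosome 17 was present in each class of the control mean from 5 reads up. By the control mean, the share there was 6.49% of decreased and 1.33% of increased regions at 5 to 10 reads, 24.7% and 2.15% at 10 to 20 reads, and 36.4% and 2.96% at 20 reads and above. Below 5 reads chromosome 17 had 0 decreased and 5 increased regions. Its members were also among the more accessible ones, with a median of 5.47 reads in knockdown cells and 15.7 in control cells, and 1 of 35 stood at the floor. On chromosome 6, by contrast, 11 of 25 members stood at the floor, and on chromosome 12, 7 of 9. The 5 most negative folds on chromosome 17 belonged to CYB561, BCL6B, ZNF287, LINC00910 and MXRA7. The LINC00910 region had 1.31 reads in knockdown cells and 9.68 in control cells, and the region in the first intron of MXRA7, a matrix-remodelling associated gene, had 2.00 reads in knockdown cells and 10.9 in control cells.

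Within chromosomes, segments of 10 Mb gave a finer picture. The segment from 70 to 80 Mb of chromosome 17 held 15 decreased and 37 increased regions, and its members lay near UNC13D, MXRA7, SOCS3, RNF213, TBC1D16 and P4HB among others. The first 10 Mb of chromosome 6 held 8 decreased and 7 increased regions, near SERPINB9, TUBB2A, NRN1, RREB1, DSP and TXNDC5. Decreased regions were also at least as many as increased ones from 60 to 70 Mb of chromosome 20 (6 beside 5), from 30 to 40 Mb of chromosome 6 (4 beside 3) and from 40 to 50 Mb of chromosome 10 (2 beside 2). A last such segment, the first of chromosome 21, held 1 decreased region, that of TEKT4P2, a duplicated pseudogene where read assignment is uncertain. In all, 95 of 304 segments with a listed region held a decreased one, and the 12 segments with 4 or more held 73 of the 200.

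Decreased regions had an increased region nearby less often than increased regions had another increased one. The share that the density of increased regions alone would give was not computed. An increased region was within 10 kb of 7 members (3.5%) and within 100 kb of 63 (31.5%, interval 25.1 to 38.4%). Increased regions had another increased region within 10 kb in 21.8% and within 100 kb in 64.3%, so both numbers are read against a list that is itself clustered. Another decreased region lay within 50 kb of 21 members (10.5%), forming 11 pairs.

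Of the 11 pairs, 5 were on chromosome 17. Near STAC2, an adaptor of calcium channels, 2 regions 3.24 kb apart had 6.16 and 5.47 reads in knockdown cells, against 19.0 and 15.7 in control cells. Near CCDC200 and LINC00910 there was a row of 3 regions, with 20.7, 7.86 and 1.31 reads in knockdown cells, against 44.2, 20.6 and 9.68 in control cells. LINC01993 and SOCS3, a suppressor of cytokine signalling, had regions 25.2 kb apart with 4.47 and 5.32 reads in knockdown cells, against 12.6 and 14.1 in control cells. MCRIP1 and P4HB, a protein disulfide isomerase gene, had 6.32 reads and 1 read in knockdown cells, against 15.7 and 7.003 in control cells, and this was the only one of the 11 pairs with an increased region between its members.

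Chromosomes 6 and 20 had 2 pairs each. At SERPINB9 a region over the start and one 0.802 kb from a start lay 11.8 kb apart, with 1 and 2.00 reads in knockdown cells, against 4.13 and 9.87 in control cells. At LINC03040 regions 39.3 kb apart had 4.50 and 2.00 reads in knockdown cells, against 13.1 and 8.81 in control cells. FNDC11 and HELZ2 had 18.0 and 3.59 reads in knockdown cells, against 37.1 and 10.8 in control cells, 20.5 kb apart. UCKL1, a uridine-cytidine kinase relative, and ZNF512B had 1.16 and 1.38 reads in knockdown cells, against 9.07 and 7.59 in control cells, 23.9 kb apart. The remaining pairs were in the first intron of ACOT11, an acyl-CoA thioesterase gene, with 1 and 1.31 reads in knockdown cells, against 4.92 and 9.41 in control cells, and at SRL and TFAP4, where SRL, the sarcalumenin gene, had 1.34 reads in knockdown cells and 8.35 in control cells.

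The 200 regions had 191 nearest genes with a symbol, and no gene had more than 2. Of the regions, 171 lay nearest to a protein-coding gene, 17 to a long non-coding RNA gene, 9 to a microRNA gene and 2 to a transcribed pseudogene. As shares these were 85.5%, 8.5%, 4.5% and 1%, against 87.5%, 7.57%, 2.31% and 1.83% of increased regions. Genes with 2 were ACOT11, CCDC200, LINC03040, RNF213, SERPINB9, STAC2, TSPAN18 and TXNDC5. RNF213 had its upstream region and one in the 3′ UTR class, of a gene not named, with 2.85 reads in knockdown cells and 10.0 in control cells. TXNDC5, a disulfide isomerase gene, had regions 35.6 kb downstream and 23.6 kb upstream with 1.81 reads and 1 read in knockdown cells, against 9.41 and 6.85 in control cells. TSPAN18, a tetraspanin gene, had 3.31 reads and 1 read in knockdown cells, against 10.6 and 5.11 in control cells. The address is not always the gene the region lies in: of 73 regions in an intron or exon of a named host gene, 24 (32.9%) lay nearest to the start of another gene. Thus the downstream TXNDC5 region lay in an intron of BMP6, a bone morphogenetic protein gene, and the NUP85 region in an exon of GGA3.

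Genes with both kinds of region numbered 28, which is 14.7% of the 191 decreased genes and 0.485% of the 5776 increased genes. Over all protein-coding genes, 25.2% had an increased region and 0.818% a decreased one, so neither share was above that background. The 10 with the most negative decreased fold were PCDH7, PRDM11, FAR2, HSPG2, LINC00910, ELOVL5, RNF213, TMC3, STIMATE-MUSTN1 and KHDRBS2. FAR2, a fatty acyl-CoA reductase gene, had 7 increased regions and 1 decreased region 347 kb upstream, at the floor in knockdown cells and 6.52 reads in control cells. PCDH7 had 6 increased regions, and its decreased one lay 371 kb from the nearest increased region. In HSPG2, the perlecan gene, the opposite changes lay 3.19 kb apart, and its decreased region in the first intron had 2.31 reads in knockdown cells and 11.1 in control cells. ELOVL5, a fatty acid elongase gene, was at the floor in knockdown cells with 9.11 reads in control cells, 10.7 kb from its nearest increased region. TMC3 had 2.12 reads in knockdown cells and 9.78 in control cells, and STIMATE-MUSTN1 had 2.16 reads in knockdown cells and 9.43 in control cells. Outside these 10, and chosen after their values were seen, SEC14L1 and GBX1 had decreased and increased regions 2.22 and 3.95 kb apart.

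Of 20056 protein-coding genes, 164 (0.818%) were the nearest gene of a decreased region, and 25.2% of an increased one, which is the background for the gene lists. The lists were written with earlier results of these data known, and RUNX3, SERPINB9, TXNDC5, BCL6B, TFAP4 and RNF213 stand in them partly for that reason, so their counts support no theme. Some lists leave out genes of their kind, so each count covers the listed genes alone. Among regulators of chromatin, 0 of 15 PRC2 genes and 0 of 24 PRC1 genes had a decreased region, while 6 and 10 had an increased one. Of the 7 RUNX and core-binding factor genes RUNX3 had a decreased region and 2 genes had an increased one. Of 31 haematopoietic stem and progenitor genes BCL6B alone had a decreased region, and 16 had an increased one. None of the 32 myeloid differentiation, 22 erythroid and megakaryocyte or 30 apoptosis genes listed had a decreased region, and 6, 2 and 10 of them had an increased one. DAPK1, a death-associated protein kinase gene outside the apoptosis list, had a decreased promoter region. Its mean was 1.97 reads in knockdown cells and 9.01 in control cells.

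Listed lymphocyte genes with a decreased region were RUNX3 and SERPINB9 of 30 T and NK genes, and TXNDC5 of 19 B lymphocyte genes. NCR2, CST7, UNC13D and VAV1, which also act in lymphocytes, had a decreased region but are not in these lists. The interferon response list had 3 of 34, namely RNF213, SOCS3 and BST2, which encodes tetherin. The BST2 region had 1.66 reads in knockdown cells and 8.90 in control cells. The cell-cycle list had 2 of 36, TFAP4 and CDC25A, a phosphatase that activates cyclin-dependent kinases, whose distal region had 3.31 reads in knockdown cells and 11.8 in control cells. AXIN2, a scaffold of beta-catenin breakdown, was 1 of 32 Wnt and Notch genes, with 2.50 reads in knockdown cells and 9.22 in control cells.

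The zinc finger list, the largest, had the most members, 8 of 608 genes (1.32%), against 0.818% of all protein-coding genes. An increased region was found for 20.7% of that family. Not yet given are ZNF236 with 1.88 reads in knockdown cells and 9.91 in control cells, and ZBTB8A with 1.81 reads in knockdown cells and 8.91 in control cells. Of the 225 listed homeobox and developmental factor genes 4 had a decreased region, TFAP4, PRDM11, FOXK2 and PAX7. The homeobox genes GBX1, ONECUT3 and ZHX3 and the developmental factor gene SALL3 also had one but are not in that list. FOXK2, a forkhead factor, had 13.9 reads in knockdown cells and 35.1 in control cells at its promoter, and PAX7, a muscle progenitor factor, had 1.81 reads in knockdown cells and 8.03 in control cells 55.1 kb upstream. The transporter lists had few: KCNN3 and SCN4A of 163 potassium, sodium and calcium channel genes, and SLC16A3, SLC27A1 and SLC41A1 of 363 solute carriers. CATSPER1, a calcium channel gene, also had a decreased region but is not in the channel list. The CATSPER1 region had 7.63 reads in knockdown cells and 19.99 in control cells. SLC16A3, a lactate exporter, had 18.5 reads in knockdown cells and 35.1 in control cells. SLC27A1, a fatty acid transporter, had 6.78 reads in knockdown cells and 16.9 in control cells, and SLC41A1, a magnesium transporter, was at the floor in knockdown cells and had 6.55 reads in control cells.

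Of 159 genes for GTPase regulators 3 had a decreased region. ARHGAP22 had 1.69 reads in knockdown cells and 8.28 in control cells, PLEKHG1 was at the floor in knockdown cells and had 4.60 reads in control cells, and TBC1D16 had 5.74 reads in knockdown cells and 14.7 in control cells. ACOT11 and ELOVL5 were 2 of 52 genes of acyl-CoA and fatty acid enzymes, SERPINB9 was 1 of 34 serpins, and RNF213 was 1 of 416 genes of ubiquitin ligase and deubiquitinase families. No decreased region was nearest to any of 27 KLF and SP genes, 86 collagen, laminin and integrin genes, 82 ribosomal protein genes or 55 keratin genes, of which 12, 21, 37 and 0 had an increased region. Among markers of the cell types a culture could hold, no decreased region lay nearest to KIT, CD34, CD33, MPO, RUNX1 or RUNX1T1 of the leukaemia line, nor to any marker of T and NK, B, erythroid, megakaryocyte, epithelial or fibroblast cells. Increased regions lay near KIT, CD34, RUNX1 and RUNX1T1, and near GZMB, PAX5 and COL1A2. Lists of changed regions give no accessibility level at unchanged markers, so the identity of the cells was not checked.

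Most members were of the same size, with 182 of 200 (91%) spanning exactly 401 bp, against 92.5% of increased regions, and the longest, 37.1 kb upstream of PMEPA1, spanned 1082 bp. PMEPA1, an inhibitor of TGF-beta signalling, had 9.37 reads in knockdown cells and 26.9 in control cells. One region, at chr1:146009421-146009821, had a gene identifier without a symbol and lay in an intron of NBPF20, a gene of a family with many near-identical copies. It was at the floor in knockdown cells and had 6.95 reads in control cells, and its count is uncertain for that reason, as are those at CYP2D7 and H2AC25.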

How the data were processed

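ATAC-seq regions of Kasumi-1 cells were taken from a pair of lists that the authors deposited, one of increased and one of decreased regions. Per the file headers, the authors gave each region log2 means of normalised reads (overall and by group), a log2 fold, a p-value, an FDR and the nearest gene. Per the submitters' processing notes, the tools included MACS2 2.2.6, deepTools 1.5.12, Picard 2.2.4 and Bowtie2 2.4.1, with no role or setting. Not given in the sources used here are the normalisation, the tool behind the folds, a transposase shift of reads, the merging of peaks and the library depths. The overall mean was within 0.01 log2 of the group means weighted by 3 knockdown and 4 control libraries in 98.6% of regions, which fixed the group columns.

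The notes name build hg38, but the gene starts or ends matched GRCh38 in only 0.228% of regions and 13 chromosomes had a region beyond the last GRCh38 gene, so coordinates are read as hg19 and none was converted. The number tested, 52675, was inferred from the deposited FDR, p-value and its rank. An implied 110 further passing regions were not analysed here. The RefSeq table matched 199 of 200 gene identifiers.

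Members and gene lists were chosen with earlier results of these data known. Named are the 12 most negative folds, all regions over a start and the 12 most negative promoters, genes with 2 regions, list genes, the 3 members on each side of the threshold, the 5 most negative on chromosome 17, 10 genes with both kinds of region, the 5 highest control means and pairs under 50 kb apart. One item that this rule names is not reported here. Some others are named for their position or extreme values and were chosen after their values were seen. Group means chose the members and no values per library were used, so no test was run; medians and shares are set beside those of increased regions. Alternatives were a stricter FDR, fold or read level, no floored regions, no chromosome 17, and other distances. Scripts ran under Python 3.11.15 with matplotlib 3.10.9, scipy 1.17.1, numpy 2.4.6 and pandas 2.3.3. Only some of their helper functions were tested, on simulated or made-up input.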

Additional observations from a re-analysis of the deposited data

How the results depend on the processing

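Of 41 values recomputed for the decreased regions, 25 stayed within the limit set for them and 16 moved. For the number of regions that limit was a factor of 1.5, and for the other values it was their error. The sign of the fold could not change, because the selection fixed it. At an FDR of at most 0.01, 27 regions were left, with a median fold of -1.26, 11.1% at the floor and 25.9% on chromosome 17. At an absolute fold of at least 1, 73 were left, with a median of -1.10 and 9.59% at the floor. Without floored regions the median fold was -0.99. At an overall mean of at least 10 reads, 67 were left, with a median distance of 4826 bp, 43.3% at promoters, 0% at the floor and 31.3% on chromosome 17. Promoters within 1 kb made up 20.5%, and 3.5% had an increased region within 10 kb. The median difference of group means was -2.02 in log2, against the deposited fold of -0.96. Without chromosome 17 the 7 values recomputed did not move. Apart from shares that follow from the limit itself, the cause was not tested. No paired analysis was possible because the tables hold group means with no column per library, and no replicate could be left out for the same reason. The low read counts limit each value: 66.5% of members had an overall mean under 10 reads.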
